A study of Mus musculus with 2 samples.

Results

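The 10 genes followed here encode proteins of cytoplasmic intermediate filaments and were measured by RNA-seq in mouse optic nerve at postnatal day 12. They were chosen by symbol from what these proteins are known for, with earlier results of these data known. The glial group holds Gfap, Vim, Nes and Synm, the neuronal group holds Nefl, Nefm, Nefh, Ina and Prph, and Des stands for muscle. All 10 members have 1 entry each among the 23950 gene symbols of both libraries. The control group is 1 library of Hdac3 f/+; Olig1-cre mice and the cKO group is 1 library of Hdac3 f/f; Olig1-cre mice, on a strain background given as mixed. Both groups carry the Cre recombinase, driven from the Olig1 gene of the oligodendrocyte lineage, and the control group carries 1 Hdac3 allele that it can delete. How many animals went into a library is not stated in the labels. The study's question is how the histone deacetylase HDAC3 bears on whether glia become oligodendrocytes or astrocytes.

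Intermediate filaments are ropes of coiled-coil proteins, and the subunits a cell makes depend on its type and maturity. GFAP and vimentin form the filaments of astrocytes, nestin marks progenitors and immature or reactive astrocytes, and synemin is a large partner that needs vimentin, GFAP or desmin to enter a filament. Neurofilaments of axons are built on a core of the light chain NEFL, with the medium and heavy chains NEFM and NEFH giving side arms and with alpha-internexin (INA), which developing neurons make early, or peripherin (PRPH). The cell bodies of the axons in this nerve, the retinal ganglion cells, lie in the retina.

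The members are related in sequence, most of all along the coiled-coil rod, so short reads of one member can look like another. In GENCODE M21 transcripts on GRCm38, 1 per gene, the coding sequences of the 10 members were compared pair by pair. Over the 45 pairs of members, the longest identical run of coding bases had a median of 14 bases. The longest were 36 bases, between Prph and Des, and 35 bases, between Nefm and Prph. Neither the labels nor the files state the read length, so how often a read could not be placed between members is unknown.

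The deposited values are FPKM (fragment counts divided by transcript length and library size), each with a lower and upper bound and a status. Over all entries the sum was 441867 for the library labelled control against 557861 for that labelled cKO, and read depth is unknown. The control sum includes Gfap at 3997 FPKM, while Gfap was not quantified in cKO and entered that sum as 0. Hdac3 measured 36.4 FPKM in control against 38.0 in cKO, both above their own intervals. A value over the whole gene cannot check a deletion of part of it in 1 cell lineage, so the labels are unchecked and every direction refers to the library labelled cKO. Each group is a single library, so no replicate spread and no test can be given, and the deposited interval covers neither animals nor library preparation. Of 10 oligodendrocyte markers, listed with earlier results of these data known, 10 were lower in cKO by 2-fold or more. By the rule given below, 4.51% of all tested genes were lower. The summed level of the 10 markers was 12765 FPKM in control against 1925 in cKO. In whole nerve, fewer cells of a type and less RNA per cell cannot be told apart.

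Gfap was the most abundant filament gene of the control-labelled library, followed by Vim. Gfap (chr11:102748650-102758514, mm9) was at 3997 FPKM there, rank 5 of 23751 genes and 2.27 times the level of Vim. In the cKO-labelled library its status is HIDATA, a flag that Cufflinks gives to a locus with too many fragments to process, and the printed level of 0 is a placeholder. Gfap was therefore not quantified in the cKO-labelled library, and no difference is given for the best known astrocyte filament. It was the 1 entry of the table with this status.

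Vim (chr2:13495938-13504453), which astrocytes share with vessel wall cells and fibroblasts, was at 1762 FPKM in control against 2250.5 in cKO. It ranked 16 in control against 11 in cKO, where the ranking leaves out Gfap, which stood above Vim in control. Vim made up 96.9% and 95.4% of the summed FPKM of the 9 members quantified in both. Nes (chr3:87775015-87784373) was at 20.8 FPKM in control against 39.3 in cKO, a ratio of 1.89. Synm (chr7:74875047-74904628) was at 7.18 and 15.5 FPKM, a ratio of 2.16. On the deposited scale all 3 values were larger in the cKO-labelled library, but only Synm met the rule given below for a higher gene. After scaling both libraries to the same FPKM sum Vim was at -0.0042 on the log2 scale, and Synm did not meet the rule under any of the 4 other scalings. The ratio of Vim to Nes within a library went from 84.9 to 57.3, and that of Vim to Synm from 246 to 145, while Nes over Synm was 2.89 and 2.54. Such ratios do not depend on how the libraries are scaled to each other.

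**Figure D1:**
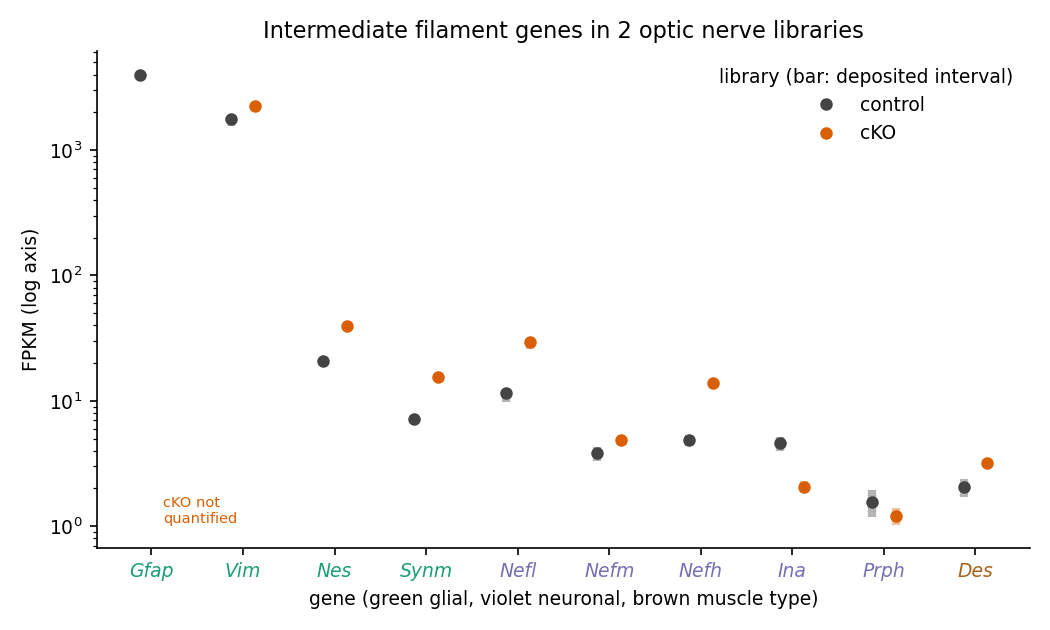
FPKM of the 10 filament genes on a log axis, with the control library in grey and the cKO library in orange; points are the deposited FPKM and shaded bars the deposited intervals. Gfap and Vim lie far above the others, Nefl and Nefh are higher in cKO, the cKO point of Ina lies below its control point, and Gfap has no cKO point.

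Among the neuronal genes, 2 of the 3 neurofilament chains were more than 2-fold higher in the cKO-labelled library. Alpha-internexin had the smaller value there, its printed control level being 2.23 times its cKO level. It fell short of the rule given below (log2 -0.87) because of the pseudocount that the rule adds to low values. Nefl (chr14:68701941-68705794), the core subunit, was at 11.6 FPKM in control (deposited interval 9.72 to 12.1) and 29.5 in cKO (25.9 to 28.0). Nefh (chr11:4838759-4848067), the heavy chain that mature axons carry, was at 4.89 FPKM (4.39 to 5.38) and 13.8 FPKM (13.01 to 14.1). Their ratios were 2.54 and 2.82, and their intervals lie well apart. Nefm (chr14:68737602-68743061), the medium chain and the next gene to Nefl on the chromosome at a distance of 31807 bases, was at 3.81 FPKM (3.31 to 4.28) and 4.86 FPKM (4.53 to 5.18). Its ratio was 1.28, so the neighbouring genes Nefl and Nefm did not move in step.

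Ina (chr19:47089188-47098836) was at 4.58 FPKM in control (3.98 to 5.18) and 2.05 in cKO (1.83 to 2.28). The control level was 2.23 times the cKO level, with separate intervals. Prph (chr15:98885605-98889409), the filament of peripheral neurons, was at 1.55 FPKM (1.18 to 1.94) and 1.21 FPKM (1.02 to 1.41), and its intervals overlap. The 5 neuronal genes summed to 26.4 FPKM in control against 51.4 in cKO. Within that sum, Nefl went from 43.9% to 57.4% and Nefh from 18.5% to 26.8%. The share of Ina went from 17.3% to 3.996%, that of Nefm from 14.4% to 9.45% and that of Prph from 5.87% to 2.36%. The ratio of Nefl to Ina was 2.53 in control against 14.4 in cKO, and the ratio of Nefl to Nefh was 2.38 and 2.14.

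**Figure D2:**
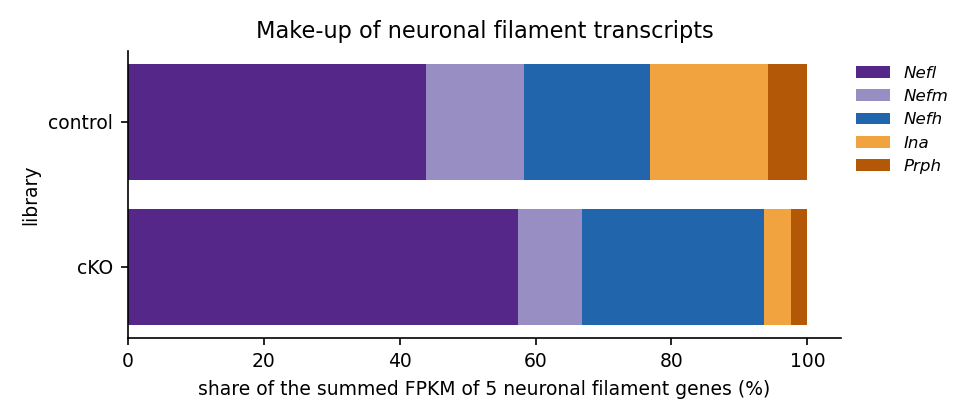
Share of each of 5 neuronal filament genes in their summed FPKM (percent), 1 bar per library. Nefl and Nefh together take most of the cKO bar, and the share of Ina shrinks from 17.3% to 3.996%.

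Des (chr1:75356867-75365154), desmin of muscle and vessel wall cells, was at 2.05 FPKM in control (1.72 to 2.39) and 3.19 in cKO (2.94 to 3.45), a ratio of 1.56 with separate intervals. It stayed at the low end of the family, far below Vim in both libraries.

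By level, the control-labelled library had the order Gfap, Vim, Nes, Nefl, Synm, Nefh, Ina, Nefm, Des and Prph. Of the 9 neighbouring pairs in that order, 3 had overlapping intervals, namely Nefh with Ina, Ina with Nefm, and Des with Prph. The cKO-labelled library had the order Vim, Nes, Nefl, Synm, Nefh, Nefm, Des, Ina and Prph, and 0 of its 8 neighbouring pairs overlapped. Ina thus passed from above Nefm and Des to below both. Of the 19 quantified values, 5 lie outside their own deposited interval. Vim in both libraries, and Nefl and Nes in cKO, lie above theirs, and Gfap in control (4051 to 4091) lies below. For these 5 the interval is no error of the printed value.

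Differences were taken as log2 of cKO over control FPKM after adding a pseudocount of 1 to each, which understates changes of low genes. A gene counted as higher or lower when it differed by 2-fold or more and its intervals lay apart. Genes entered when both values had status OK and at least 1 reached 1 FPKM, which 14154 genes did. All members but Gfap entered, each with at least 1 FPKM in both libraries. Of these 9, 3 were higher, against 4.73% of all tested genes, and 0 were lower, against 4.51%. The members were chosen with earlier results of these data known, so this comparison is not independent of the data. The 3 were Nefh at 1.33, Nefl at 1.28 and Synm at 1.01. The bounds of the intervals gave 1.13 to 1.48 for Nefh, 1.04 to 1.43 for Nefl and 0.91 to 1.14 for Synm.

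The other 6 members did not meet the rule. Their differences were 0.89 for Nes, 0.46 for Des, 0.35 for Vim, 0.29 for Nefm, -0.21 for Prph and -0.87 for Ina. The difference of Nefh exceeded that of 97.6% of tested genes, that of Nefl 97.3% and that of Synm 94.4%, while that of Ina exceeded 5.95%. The median was 0.89 over the 3 quantified glial genes and 0.29 over the 5 neuronal genes, beside 0.12 over all tested genes. The neuronal range of -0.87 to 1.33 encloses the glial range of 0.35 to 1.01 and Des at 0.46. A difference between the glial, neuronal and muscle-type groups was not tested.

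The count depends on the scale of the libraries. Scaling both libraries to the same FPKM sum shifts the median of all genes from 0.12 to -0.18 and left 0 members higher (1.41% of tested genes) and 1 lower, Ina at -1.10 (7.04% of tested genes). Nefl was then at 0.93, Nefh at 0.997 and Synm at 0.68, and Vim and Nefm turned to -0.0042 and -0.0043. Under 3 other scalings 2 members were higher, Nefl and Nefh. These were the same upper quartile (3.75% of tested genes), the same sum without small RNAs (3.38%) and centring on the median (3.1%). With a pseudocount of 5 only Nefl was higher (1.99% of tested genes) and Ina was at -0.44. With 0.1 Ina was lower at -1.12 (5.81% of tested genes). At 1.5-fold, 4 members were higher, Nes joining (16% of tested genes), and 1 lower, Ina (8.85% of tested genes).

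**Figure D3:**
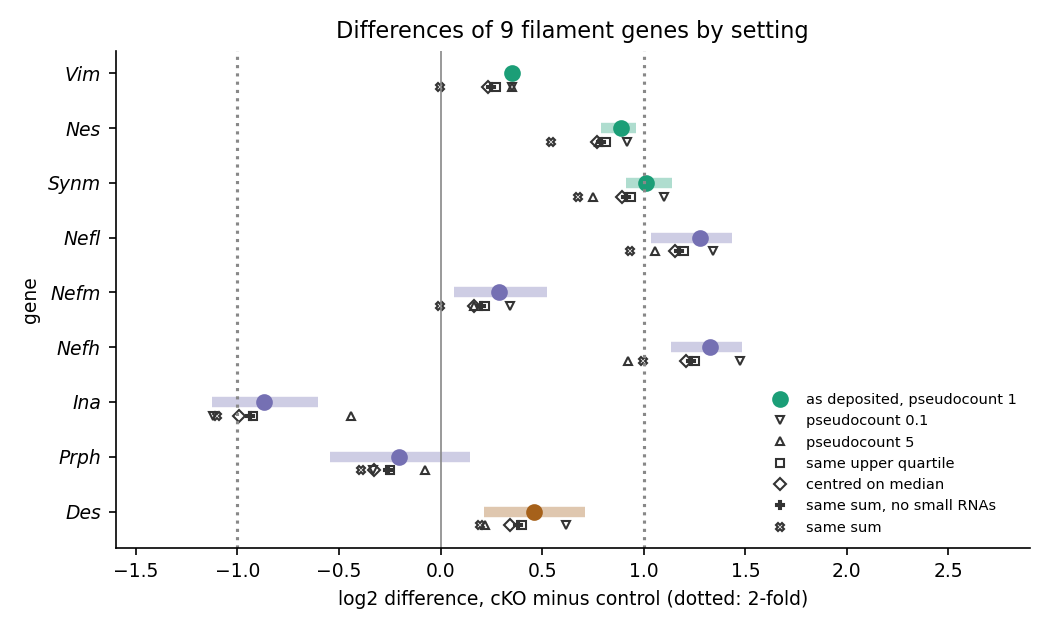
Log2 difference (cKO minus control) of the 9 filament genes quantified in both libraries; filled circles use the deposited scale and a pseudocount of 1, shaded bars the range from the interval bounds, and open or black symbols the other pseudocounts and scalings. Nefl and Nefh stay near or above the dotted 2-fold line and the filled circle of Synm sits on it. Ina lies below 0 throughout, from -0.44 with a pseudocount of 5 to -1.12 with 0.1.

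Promoters from RefSeq (GRCm38.p6, 250 bases before to 50 bases after the gene start) matched 7 of the 10 members, all but Nefl, Nefm and Nefh. Those of Nes and Synm, glial genes with alike differences, and of Ina, the neuronal gene with the most negative difference, are shown. They lie at chr3:87970843-87971142 (+ strand), chr7:67759693-67759992 (- strand) and chr19:47014431-47014730 (+ strand). Capitals mark matches, on either strand, to 4 motifs. These are the TATA box, spelled TATAAA, the CCAAT box, spelled as its name, the GC box, spelled GGGCGG, and the STAT site, spelled TTCNNNGAA.
Nes: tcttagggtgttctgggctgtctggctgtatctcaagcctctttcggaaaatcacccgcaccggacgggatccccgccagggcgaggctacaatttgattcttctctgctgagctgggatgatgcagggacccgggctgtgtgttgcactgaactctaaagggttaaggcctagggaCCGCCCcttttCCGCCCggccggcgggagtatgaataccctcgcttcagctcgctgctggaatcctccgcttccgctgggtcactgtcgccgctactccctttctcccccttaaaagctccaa
Synm: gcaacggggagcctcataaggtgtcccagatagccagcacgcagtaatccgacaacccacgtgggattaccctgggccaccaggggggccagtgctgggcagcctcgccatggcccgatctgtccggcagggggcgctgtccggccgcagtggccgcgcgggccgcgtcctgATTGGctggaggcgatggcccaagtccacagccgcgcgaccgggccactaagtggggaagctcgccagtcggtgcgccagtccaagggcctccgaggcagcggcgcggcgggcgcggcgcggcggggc
Ina: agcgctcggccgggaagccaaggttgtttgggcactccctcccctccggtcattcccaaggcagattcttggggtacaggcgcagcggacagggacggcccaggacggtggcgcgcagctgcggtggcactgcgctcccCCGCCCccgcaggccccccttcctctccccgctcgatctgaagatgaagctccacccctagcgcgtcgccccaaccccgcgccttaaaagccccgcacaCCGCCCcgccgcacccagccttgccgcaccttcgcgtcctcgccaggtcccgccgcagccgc
Nes holds 2 GC boxes, Ina 2 GC boxes and Synm 1 CCAAT box, and none of these 3 holds TATAAA. Of 32851 promoters of the same length, 35.7% hold a GC box, 37.4% a CCAAT box, 13.6% a TATA box and 8.30% a STAT site, so these matches are common. TATAAA was found in Vim and in Prph, 32 and 31 bases before the start. Gfap holds 1 STAT site, which starts 2 bases before the start. Of the matches in the 7 promoters, 0 overlapped one another. GC content was 72.7% in Synm, 71.7% in Ina and 58.7% in Nes, beside a median of 52.7%. The matches are letters in these windows and say nothing of binding.

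The proteins that build, tie and modify filaments gave mixed differences. Beside their counts stand 4.73% higher and 4.51% lower over all tested genes. Of 18 other filament genes, 10 were tested, of which 1 was higher and 2 lower, and the median was 0.17. Krt19, a keratin of epithelia, was at 4.31 FPKM in control against 11.9 in cKO (log2 1.28). Bfsp2, a filament protein of the lens, was at 28.0 and 9.52 FPKM (log2 -1.47), and Iffo1, an intermediate filament family orphan, at 43.4 and 17.4 (log2 -1.27). The nuclear lamin gene Lmna was at 38.1 and 52.1 FPKM (log2 0.44). Filaments of other tissues were thus on both sides, and Bfsp2 exceeded every neuronal member in the control-labelled library.

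Of 9 linkers that tie filaments to membranes or to other fibres, 5 were tested, of which 0 were higher and 1 lower, and the median was 0.25. The 1 was Dst, a spectraplakin of neurons and muscle, at 35.3 and 16.7 FPKM (log2 -1.03). Plec, the general linker plectin, was at 22.5 and 36.4 FPKM (log2 0.67). Of 14 chaperones and modifying enzymes, 14 were tested, with 3 higher and 0 lower and a median of 0.15. Padi2, the deiminase that citrullinates GFAP and vimentin, was at 51.0 FPKM in control against 136 in cKO (log2 1.40). The small heat shock genes Hspb1 (42.0 and 93.3 FPKM, log2 1.13) and Hspb8 (60.3 and 124 FPKM, log2 1.03) were higher too. Cryab, the chaperone alphaB-crystallin that binds GFAP and desmin, did not follow them and was at 209 and 152 FPKM (log2 -0.46). After scaling to the same sum, Krt19, Hspb1 and Hspb8 no longer met the rule, and Padi2, Bfsp2, Iffo1 and Dst still did. Hspb8 also fell short under the 3 other scalings tried, and Hspb8, Krt19 and Dst with a pseudocount of 5.

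Marker lists of the cells that make these filaments are given beside the members, and their part in the members' differences was not tested. Over all tested genes, 4.73% were higher and 4.51% lower in the main setting. For the glial group, 16 of 16 astrocyte markers were tested, with 2 higher, 0 lower and a median of 0.62, and they summed to 5543 FPKM in control against 8373 in cKO, a ratio of 1.51, with none of them at 0. That ratio lies between those of Vim (1.28) and Nes (1.89). Apoe makes up most of both sums, at 3152 and 4420 FPKM (log2 0.49), so the ratio largely reflects this gene. Gjb6, a connexin of astrocytes, was at 40.4 and 107 FPKM (log2 1.39). Of 10 reactive astrocyte genes 4 were higher and 0 lower around a median of 0.87, and they summed to 388 and 706 FPKM. Of 7 neural progenitor markers 0 met the rule, with a median of -0.22 and sums of 314 and 205 FPKM, and of 8 genes of dividing cells 0 met it, with a median of -0.11. The progenitor list was split in sign, with 3 of 7 differences above 0 and 4 below. Fabp7, a fatty acid binding protein of radial glia, makes up most of its sum at 220 and 122 FPKM (log2 -0.85). Sox2 was at 45.3 and 38.7 FPKM (log2 -0.22), while Pax6 was at 1.99 and 3.81 (log2 0.68), on the side of Nes. Meningeal fibroblast markers, of cells that also make vimentin, were higher for 8 of 9, with sums of 1955 and 4580.0 FPKM. After scaling to the same sum, 1 astrocyte, 0 reactive astrocyte and 3 meningeal fibroblast genes were higher (1.41% of all tested genes). With a pseudocount of 5, 1 reactive astrocyte gene was higher (1.99% of all tested genes). Of 10 endothelial and 10 microglial genes, cells that also make vimentin, 0 met the rule in the main setting, and the medians were 0.36 and 0.41.

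For the neuronal group, 17 of 20 neuron and axon genes were tested. Of these 1 was higher and 1 lower, beside 4.73% and 4.51% of all tested genes. In this list 9 differences were above 0 and 8 below, and the median was 0.15. Kif5a, a kinesin motor that carries neurofilaments along axons, was at 283 FPKM in control against 600.0 in cKO (log2 1.08), and fell short of 2-fold after centring and after scaling to the same sum, with or without small RNAs. Both Kif5a values lie below their own deposited intervals. Values of other listed genes lie outside theirs too, some further. Examples are Hspb1 at 93.3 FPKM in cKO (70.6 to 76.1) and Fabp7 at 220 FPKM in control (157 to 171). Map1b, a microtubule protein of growing axons, was at 53.3 and 16.8 FPKM (log2 -1.61), and Uchl1 was at 54.8 and 35.3 (log2 -0.62). The list was therefore split in sign as the neuronal filaments were. Its counts were 0 higher and 6 lower after scaling to the same sum, beside 1.41% and 7.04% of all tested genes. They were 0 and 5 after centring (3.1% and 5.38% of all), and 2 and 4 with a pseudocount of 0.1 (8.17% and 5.81%). The following genes were picked after their values were seen. Sncg and Thy1, which retinal ganglion cells express, were at 8.78 and 16.7 FPKM (log2 0.86) and at 18.1 and 28.1 FPKM (log2 0.60), on the side of Nefl. Tubb3 and Map2, at 12.7 and 6.24 FPKM (log2 -0.92) and at 29.0 and 15.1 FPKM (log2 -0.90), were on the side of Ina. How much of this list's RNA comes from axons and how much from glia of the nerve was not tested.

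Markers of the cell bodies of retinal neurons differed in level. Rbpms, an RNA-binding protein listed here for retinal ganglion cells, was at 4.55 FPKM in control against 9.72 in cKO (log2 0.95). Whether its reads come from ganglion cells or from other cells of the nerve was not tested. Pou4f1, a transcription factor of retinal ganglion cells, was at 0.343 FPKM in control against 0.111 in cKO, Isl1 at 0.140 and 0.0296, and Slc17a6 at 0.220 and 0.236. Of 10 photoreceptor genes, 9 were under 1 FPKM in both libraries, and the other, Rom1, was at 4.55 and 9.34 FPKM (log2 0.90). For Des, 2 muscle lists are given, beside 4.73% higher and 4.51% lower over all tested genes. Of smooth muscle and mural genes 15 of 15 were tested, with 3 higher, 0 lower and a median of 0.80, and sums of 358 and 659.6 FPKM, none of them at 0. Acta2, the actin of smooth muscle, was at 11.9 and 26.95 FPKM (log2 1.11). After scaling to the same sum, and with a pseudocount of 5, none of the 3 met the rule, and Acta2 fell short after centring too. Of 14 skeletal muscle genes 6 were tested, with 0 higher, 1 lower and a median of 0.27, 4 differences lying above 0 and 2 below. The lower gene was Tnni1 at 25.5 and 2.67 FPKM, while Ckm was at 0.329 and 0.0283 and Ttn at 0.0115 and 0.0109. Des had the sign of both lists' medians. The summed level of the 14 skeletal muscle genes went the other way, at 46.3 FPKM in control against 27.5 in cKO, with Tnni1 the largest in control.

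**Figure D4:**
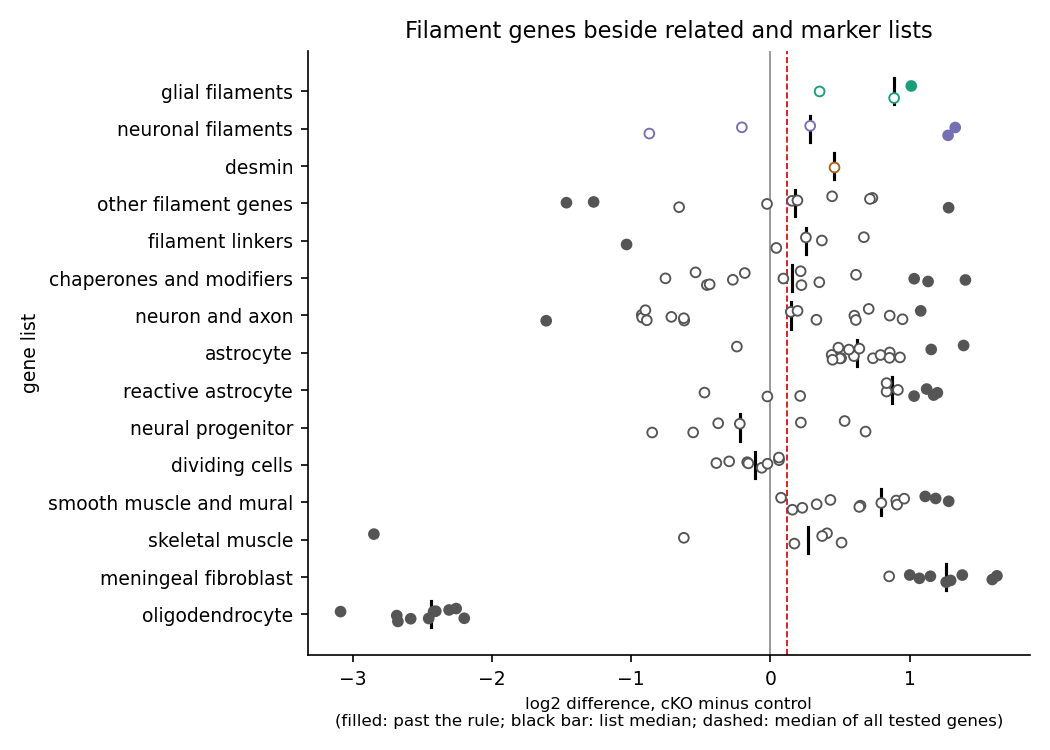
Log2 difference (cKO minus control) of each tested gene by list; filled points met the 2-fold and interval rule, black bars are list medians and the dashed line is the median of all tested genes (0.12). Neuronal filaments and neuron genes spread to both sides of 0, while smooth muscle and mural genes all lie above it and oligodendrocyte genes all lie below -2.

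Other genes share ground with 4 of the 10 members in the files' coordinates. Nefm overlaps A230070E04Rik over 1253 bases, Nefh overlaps Ap1b1 over 544, Ina overlaps Nt5c2 over 492 and Des overlaps Gm15179 over 370. Neither labels nor files state whether strand was used in counting, so reads from these stretches may not be told apart. Ap1b1 was at 17.5 and 25.7 FPKM (log2 0.53), less than the 1.33 of Nefh, and Nt5c2 at 9.88 and 11.5 (log2 0.20), opposite in sign to Ina. A230070E04Rik was at 2.33 and 2.63 FPKM, and Gm15179 was listed at 0 in both. Nefl and Synm overlap no other entry.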

How the data were processed

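RNA of whole optic nerve was extracted with Trizol and made into libraries with the Illumina TruSeq RNA kit, per the labels' protocols, 1 library for each of 2 groups. The authors deposited FPKM per gene with interval bounds and a status, per the file headers. CASAVA, TopHat, Cufflinks and the mm9 build were used, per the submitters' processing notes. The versions, annotation, read length, strand setting, depth and scaling behind the FPKM are stated neither in the labels nor in the files.

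The 24460 entries of both tables were joined on symbol, start site group and locus, and a symbol with several entries kept the one with the highest summed FPKM. The pseudocount was 1, the minimum 1 FPKM and the fold 2. Scalings multiplied the cKO values, and the sums used for scaling left out Gfap in both libraries. No p-value was computed, since there is 1 library per group. The calling code was tested on simulated data with known folds. The simulated intervals lay evenly around each value, unlike the deposited ones. That test therefore checks the code and not how the rule performs on these data. Members and lists were chosen with earlier results of these data known. The text names all members and, of other lists, mostly the 2 most abundant tested genes, the 2 with the largest differences and those past the rule. Not all of those are named, and Lmna, Sox2, Fabp7, Pax6, Rbpms, Rom1, Sncg, Thy1, Tubb3, Map2, Pou4f1, Isl1, Slc17a6, Ckm, Ttn and the overlapping genes were added or kept for a stated comparison. Computing used Python 3.11.15, pandas 2.3.3 and numpy 2.4.6.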

Additional observations from a re-analysis of the deposited data

How the results depend on the processing

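Besides the main setting, 11 others were computed, and Nefl met the rule in 11 of the 12 settings, Nefh in 10 and Synm in 7. Not all of these settings could remove a call. A pseudocount of 0.1, a fold of 1.5 and dropping the interval rule only enlarge differences or loosen the rule. Summing entries or changing the minimum FPKM could not matter, as each of these genes has 1 entry and exceeds 5 FPKM in cKO. Synm did not meet the rule under any scaling or with a pseudocount of 5. The count of higher members was 1 with a pseudocount of 5 and 0 after scaling to the same sum, and the count of lower members was 1 (Ina) with a pseudocount of 0.1, after scaling to the same sum and at 1.5-fold. The median of the glial genes, 0.89, was 0.75 with a pseudocount of 5, 0.54 after scaling to the same sum, 0.79 after the same sum without small RNAs and 0.77 after centring. The median of the neuronal genes, 0.29, was -0.0043 after scaling to the same sum and 1.30 with a minimum of 5 FPKM, which leaves only Nefl and Nefh. No difference past the rule changed sign in any setting. Counts over all tested genes moved by more than 1.5 times too: higher genes were 669 in the main setting, 1156 with a pseudocount of 0.1, 282 with 5, 439 after centring, 199 after scaling to the same sum and 2262 at 1.5-fold, and lower genes were 638, and 339 with a pseudocount of 5, 996 after scaling to the same sum and 1253 at 1.5-fold. Of all calls, 51.2% were higher on the deposited scale, 36.6% after centring and 16.7% after scaling to the same sum, and 40.2% without small RNAs. No replicate could be left out. No paired analysis was possible because each group has 1 library.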
